A study of Mus musculus with 12 samples.

Results

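The genes followed here are 8 of the 32285 in the count matrices: the Dickkopf genes Dkk1, Dkk2 and Dkk3, the Wnt co-receptors Lrp5 and Lrp6, the Wnt target Axin2, the ligand Wnt5a, and Pthlh, which encodes parathyroid hormone-related protein. They were chosen by their summed UMIs in non-immune line cells, fibroblasts and T cells, so their levels in those 3 classes are given as a description with no test. All 8 symbols and their gene identifiers were found in the matrices. The cells came from SCC35 mouse tumours of a melanoma study: lines 15 and 18 are controls of a Mif knockout (KO), and lines 19 and 24 are Mif KO lines. Live cells of hashtagged samples were profiled with a 10x 5' single-cell kit in 6 libraries, 1 for each line and 2 that mix lines. The hashtag sheet gives day 0 (in the single-line libraries only) and days 6, 10 and 16, with up to 3 tumours a line and day, and 3 further tumours marked WT. The sources used here give neither the host strain and age nor what was sampled at day 0, and do not say whether a line is a single clone. A group is thus 2 lines, and p-values over tumours measure the spread between tumours of these lines only, which may be partly technical since the labels do not say that each came from a separate animal.

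Canonical Wnt signalling runs through Frizzled receptors and the co-receptors LRP5 and LRP6. It stabilises beta-catenin, which acts with TCF/LEF factors on target genes such as Axin2 and Notum, both of which restrain the pathway. DKK1 and DKK2 are secreted proteins that bind LRP5 and LRP6, and with the Kremen receptors they can remove these co-receptors from the cell surface, while DKK3 is a divergent family member. WNT5A is best known for signalling that does not need beta-catenin. PTHrP acts on the receptor encoded by Pth1r, and its release by tumours is known for raising bone resorption through RANK ligand, encoded by Tnfsf11.

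In GRCm38 (mm10), GENCODE M21 places Dkk2 on chr3:132085292-132180304 (plus strand), Axin2 on chr11:108920349-108950783 (plus) and Pthlh on chr6:147252101-147264183 (minus). Dkk1 lies on chr19:30545863-30549665 (minus), Dkk3 on chr7:112116017-112159057 (minus), Lrp5 on chr19:3584828-3686564 (minus), Lrp6 on chr6:134446476-134566965 (minus) and Wnt5a on chr14:28504750-28527448 (plus). An antisense-strand gene of the matrices overlaps Axin2 (Gm11670) and another overlaps Wnt5a (Gm2670), and no source used here gives the strand setting of the counting. The RefSeq promoter table (GRCm38.p6, 250 bases before to 50 after the start of the gene) held 4 of the 8 members. The promoters of Dkk2 and Axin2 are shown because these are the Wnt inhibitor and the Wnt target whose levels were both higher at days 6 to 16 than at day 0. Capitals mark the 6-base TCF/LEF core, CTTTGA or CTTTGT on either strand, which occurs in 31.2% of the 32851 promoters in the table.
Dkk2 promoter, chr3:132085042-132085341, plus strand: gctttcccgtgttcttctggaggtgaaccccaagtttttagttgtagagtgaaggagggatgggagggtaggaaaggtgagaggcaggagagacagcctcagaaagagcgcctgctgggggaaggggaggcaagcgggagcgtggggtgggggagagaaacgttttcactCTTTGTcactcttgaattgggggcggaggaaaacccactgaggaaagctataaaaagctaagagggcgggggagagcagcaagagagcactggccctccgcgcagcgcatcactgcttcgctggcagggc
Axin2 promoter, chr11:108920099-108920398, plus strand: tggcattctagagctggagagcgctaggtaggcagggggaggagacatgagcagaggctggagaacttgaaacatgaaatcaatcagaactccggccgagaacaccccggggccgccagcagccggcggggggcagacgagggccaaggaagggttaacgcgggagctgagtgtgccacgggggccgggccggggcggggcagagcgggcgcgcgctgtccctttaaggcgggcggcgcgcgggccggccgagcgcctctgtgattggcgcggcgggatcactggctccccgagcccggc
The Dkk2 window holds 1 match, at position 171 counted from its 5′ end, and the Axin2 window holds none. The Pthlh window also holds none, and that of Dkk1 holds 3.

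The 6 libraries held 151385933 to 239699029 gene UMIs (unique molecules), with a median of 3072 to 9121.5 UMIs per cell that passed the filters. Hashtags gave 100459 single cells from 45 tumours or day 0 samples. Line cells were gated by limits on marker UMIs, among them at most 1 pan-immune UMI, no T cell receptor or CD3 UMI and at most 1 UMI of the fibroblast genes Dcn and Lum, and made up 85.9% to 95.9% of day 0 cells. Of 7 melanocytic markers Tyr was at 0 in them, and Mlana, Pmel, Dct, Tyrp1 and Sox10 were each below 0.65 CPM in both groups, leaving Mitf at 15.4 CPM in control and 11.6 CPM in KO cells. They are therefore called line cells by their gate and not melanoma cells by marker. Summed over 12 fibroblast markers, line cells held 470 to 1825 CPM at medians of 785, 1013, 1328 and 818 CPM in lines 15, 18, 19 and 24. Most of this was from genes that the gate did not use, Gsn (567 CPM in control and 518 in KO), Col1a1 (118 and 358) and Col3a1 (129 and 177), and its part in the line cell differences was not tested. Pairs of libraries shared 3.41% to 4.83% of the smaller one's barcodes, and the cells of a shared barcode were counted in each library. Levels are counts per 1e6 UMIs of a class in a tumour (CPM), with at least 20 cells a tumour. Levels pooled over tumours, class totals and shares of cells also count samples with fewer cells.

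Mif, the targeted gene, followed the labels in line cells. In line cells of days 6 to 16 it was 1781 to 2784 CPM in the 18 control tumours and 44.6 to 717 CPM in the 17 KO tumours. Within the KO lines the level differed between single-line and mixed libraries. Line 19 was at 49.4, 51.4 and 266 (mixed library) CPM on day 16, and line 24 at 397, 415 and 677 (mixed library) CPM. In both KO lines the mixed-library tumour was the highest of that day. By edgeR, Mif was also lower in KO tumours in T cells (log2 fold change -0.56, adjusted p 0.0055) and macrophages (-0.44, adjusted p 2.67e-04). In fibroblasts its log2 fold change was 0.09 (adjusted p 0.73). The part of free RNA in these values was not tested. Where the knockout lesion lies against the 5' reads is unknown here.

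Dkk2 was the member that differed most between the groups, being lower in KO line cells, and its mean level was higher at days 6 to 16 than at day 0 in all 4 lines. In control line 15 the Dkk2 level was 8.34 and 8.90 CPM on day 0. It was 21.3, 19.1 and 24.5 (mixed library) CPM on day 6 and 52.9, 53.5 and 57.6 (mixed library) CPM on day 10. On day 16 it reached 89.5, 109 and 147 (mixed library) CPM. All 9 later tumours of line 15 lay above both day 0 samples.

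Control line 18 had the highest day 0 level, 35.6 CPM in its 1 sample. Its day 6 tumours were no higher, at 30.96, 31.1 and 19.3 (mixed library) CPM. They were followed by 69.6, 84.5 and 56.0 (mixed library) CPM on day 10 and 131, 140.3 and 99.3 (mixed library) CPM on day 16. In line 18 all 3 tumours exceeded the day 0 level from day 10 on.

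KO line 19 began near 0, with 1.31 and 1.60 CPM of Dkk2 on day 0. It held 3.99, 3.57 and 11.9 (mixed library) CPM on day 6, 13.2, 17.04 and 29.3 (mixed library) CPM on day 10 and 41.7, 33.6 and 41.4 (mixed library) CPM on day 16. KO line 24 had 0.788 and 0.336 CPM on day 0. On day 6 it had 4.04 and 27.9 (mixed library) CPM, on day 10 2.60, 3.92 and 20.8 (mixed library) CPM and on day 16 10.1, 12.4 and 16.8 (mixed library) CPM. In line 24 the mixed-library tumour was the highest on each of the 3 days.

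The control and KO tumours did not overlap on day 0, day 10 or day 16. On day 6 they overlapped through the mixed-library tumour of line 24, which lay above 4 of the 6 control tumours. By line, the day 16 mean was 123 ± 21.5 CPM (SD, n = 3) in line 18 and 115 ± 29.1 in line 15, which did not differ beyond their spread. Line 19 followed at 38.9 ± 4.56 (SD, n = 3) and line 24 at 13.1 ± 3.39 (SD, n = 3).

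**Figure D1:**
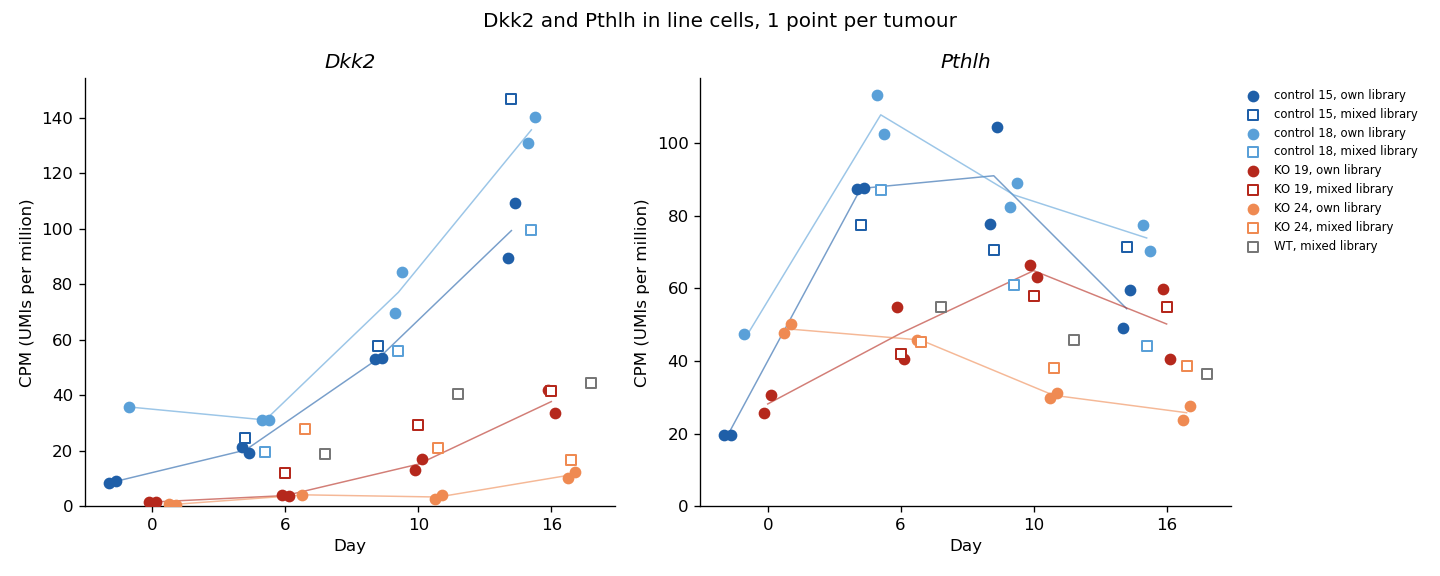
Levels of Dkk2 (left) and Pthlh (right) in line cells, in CPM, by day. Each point is 1 tumour or day 0 sample, filled in a single-line library and open in a mixed one, and lines join the means of the single-line samples; Dkk2 is at 89.5 CPM and above in the control tumours of day 16, and Pthlh is highest in control tumours of days 6 and 10.

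Over all 42 control and KO samples the edgeR log2 fold change of Dkk2, KO against control, was -2.05 (SE 0.26). It was -2.67 in the single-line libraries alone and -1.12 in the mixed libraries alone, a smaller difference where control and KO lines shared a library. These 2 values were not tested against each other. With library as a term it was -1.10, and with mixed library and day as a replicate block -0.94. Each single-line library holds a single line, so both fits draw the group difference from mixed-library tumours. They are thus no separate check on the fit of mixed libraries alone. Leaving out line 19 gave -2.50 and leaving out line 24 gave -1.76. In this comparison edgeR called 49.9% of 11677 genes at an adjusted p under 0.05.

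The share of line cells with a Dkk2 UMI was also lower in both KO lines than in both control lines. At days 6 to 16 it was 25.3% of 8847 cells in line 15 and 23.3% of 15862 in line 18. It was 9.98% of 16050 cells in line 19 and 3.98% of 7734 in line 24. With every cell thinned to 1000 UMIs the shares were 5.63%, 6.49%, 1.81% and 0.911% in lines 15, 18, 19 and 24, so that lines 15 and 18 changed places and the KO lines stayed below them. T cells, which are not known as a source of Dkk2, had thinned shares of 1.03%, 2.34%, 1.06% and 0.711% in tumours of the same 4 lines, at median depths of 1538 to 1846 UMIs against 4537 to 9247 in line cells. The line cell share was above the T cell share in each of the 4 lines, by the least in line 24 and then in line 19. Of the Dkk2 UMIs in T cells, 88 of 93 in line 24 and 43 of 64 in line 19 came from mixed libraries.

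The message was unevenly spread over the cells. In line 15 the top 1% of cells at days 6 to 16 held 8 or more Dkk2 UMIs and the highest cell held 25. In line 15 the share of cells with a Dkk2 UMI was 13.1% on day 6, 20.2% on day 10 and 37.4% on day 16, although the median depth fell from 12598 to 7931 UMIs.

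The other Dickkopf genes were nearly absent from line cells. Dkk1, the best known inhibitor of the family, had 0 UMIs in all 4 classes, among 493195047 UMIs of 59762 line cells, which allows a level of up to 0.00608 CPM at 3 counts (counting error only). Dkk3 had 48 UMIs in the same line cells, or 0.0973 CPM. In fibroblasts Dkk3 had 674 UMIs among 9984720, or 67.5 CPM.

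Dkk3 in fibroblasts was higher in control than in KO tumours, with overlap. In line 15 it was 48.7, 11.9 and 64.5 (mixed library) CPM on day 6, 96.3, 89.4 and 122 (mixed library) on day 10 and 137, 162 and 168 (mixed library) on day 16. Line 18 ran from 67.5 to 137 CPM with a median of 80.0 over 8 tumours. Line 19 ran from 25.9 to 68.1 with a median of 44.8 over 8 tumours, and the 2 tumours of line 24 with at least 20 fibroblasts held 55.2 (mixed library) CPM on day 6 and 75.9 (mixed library) CPM on day 10. No KO tumour reached the level of the upper 10 of the 17 control tumours. KO against control, Dkk3 changed by a log2 fold change of -0.76 (SE 0.22). It was -0.17 without line 19, where 2 KO tumours remain, -0.63 in single-line libraries alone and -0.95 with library as a term.

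The co-receptors Lrp5 and Lrp6 were present in line cells of every sample. Line 24 held 36.96 and 37.9 CPM of Lrp5 on day 0, against 16.9 and 21.9 in line 15, 17.02 in line 18 and 22.7 and 22.5 in line 19. At days 6 to 16 Lrp5 ran from 12.4 to 36.2 CPM with a median of 23.4 in control tumours, and from 21.8 to 39.7 with a median of 29.3 in KO tumours. The groups overlapped on days 6 and 16 and were separate on days 0 and 10, with KO above control. The log2 fold change of Lrp5 was 0.42 (SE 0.08), and it stayed between 0.32 and 0.56 when each line was left out in turn.

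Lrp6 stood out in 1 line and at 1 time. In line 19 it was 42.7 and 45.3 CPM on day 0, above every other sample, and 23.9 to 32.3 CPM in the 9 later tumours. The day 0 levels of the other lines were 18.5 and 19.8 CPM in line 15, 22.2 in line 18 and 24.9 and 26.5 in line 24. On day 0 the 4 KO samples lay above the 3 control samples. At days 6 to 16 the control range was 16.5 to 32.2 CPM and the KO range 19.7 to 32.3, which overlapped almost wholly. Its log2 fold change of 0.17 (SE 0.08) became 0.02 with library as a term, 0.01 without line 15 and -0.05 without line 19.

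Axin2, the member most used as a readout of beta-catenin signalling, was low in line cells but higher at days 6 to 16 than at day 0 in the means of all 4 lines. In line 15 it was 1.0 and 0.659 CPM on day 0, 1.13, 1.51 and 2.74 (mixed library) on day 6, 5.16, 3.11 and 6.74 (mixed library) on day 10 and 5.50, 5.39 and 5.26 (mixed library) on day 16. In line 18 it was 1.03 CPM on day 0 and 3.91, 7.49 and 10.01 (mixed library) on day 16. Line 19 went from 0.872 and 1.76 CPM to 5.02, 5.32 and 8.93 (mixed library) over the same days. Line 24 held 0.394 and 0.252 CPM on day 0 and 0.458, 2.39 and 1.90 (mixed library) CPM on day 16.

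The 2 KO lines had unlike Axin2 levels. At days 6 to 16 the mean was 4.06 ± 1.98 CPM (SD, n = 9) in line 15 and 4.0 ± 2.88 (n = 9) in line 18. It was 4.89 ± 2.19 (n = 9) in line 19 and 1.40 ± 0.807 (n = 8) in line 24. The log2 fold change between groups was -0.10 (SE 0.25), smaller in size than its SE and not tested. It was -1.49 without line 19 and 0.42 without line 24, so its sign rested on which KO line was counted.

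**Figure D2:**
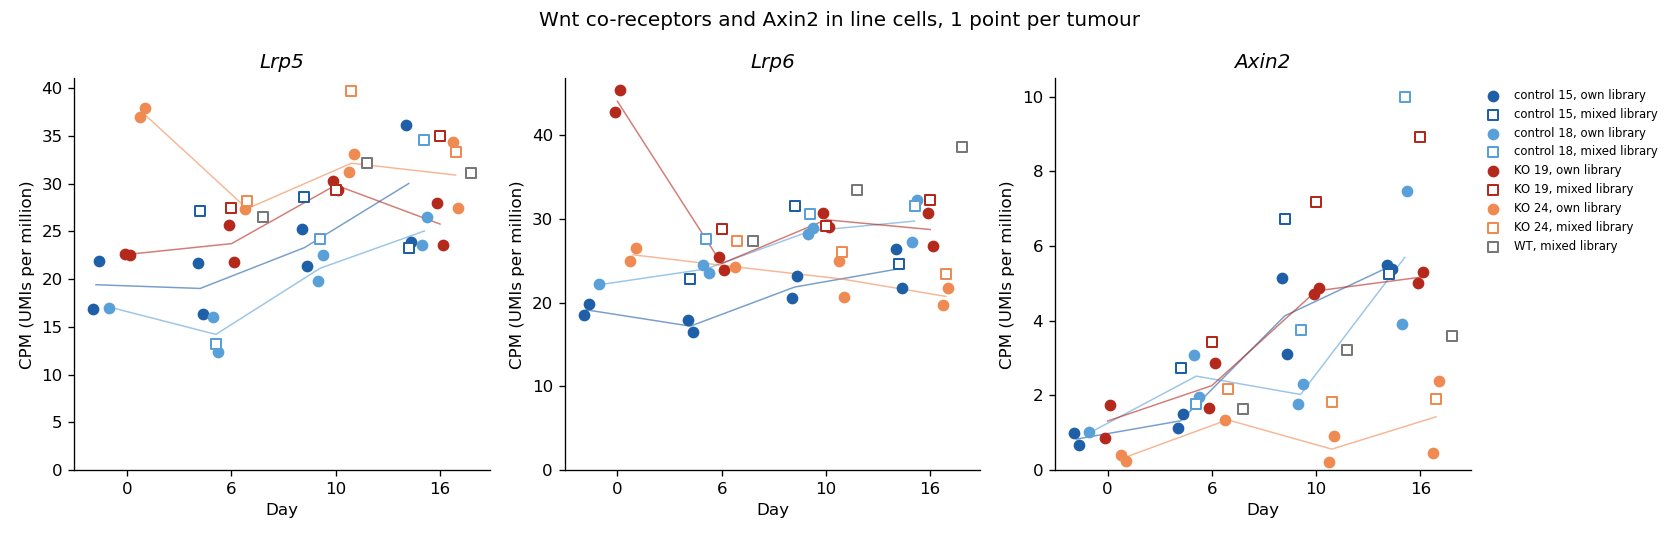
Levels of Lrp5, Lrp6 and Axin2 in line cells, in CPM, by day, with the point for each tumour or day 0 sample filled in a single-line library and open in a mixed one. Lines join the means of single-line samples; the day 0 samples of line 19 are the highest points for Lrp6, and the line 24 mean is lowest for Axin2 on days 0, 10 and 16.

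Among the gated classes Wnt5a was mainly a fibroblast message, with other cell types of these tumours not measured. It had 95 UMIs in all line cells (0.193 CPM) and 1453 in the 1221 fibroblasts (146 CPM). In fibroblasts of line 15 it ran from 102 to 279.5 CPM with a median of 209 over 9 tumours, and in line 18 from 116 to 267 with a median of 204 over 8. In line 19 the level was 20.2, 30.7 and 86.2 (mixed library) CPM on day 6, 75.7, 46.7 and 35.6 (mixed library) on day 10, and 271 and 97.6 (mixed library) on day 16. The 2 line 24 tumours held 36.8 (mixed library) CPM on day 6 and 48.8 (mixed library) CPM on day 10. Of the 10 KO tumours, 9 lay below all 17 control tumours, and 1 tumour of line 19 on day 16 lay below only the highest control tumour. In fibroblasts the summed endothelial markers were 38.1 to 123.0 CPM in control and 80.2 to 202.3 CPM in KO tumours, and their part in this and the other fibroblast results was not tested. The Wnt5a log2 fold change was -1.41 (SE 0.26), KO against control, and it ran from -1.15 in single-line libraries alone to -2.22 without line 19.

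**Figure D3:**
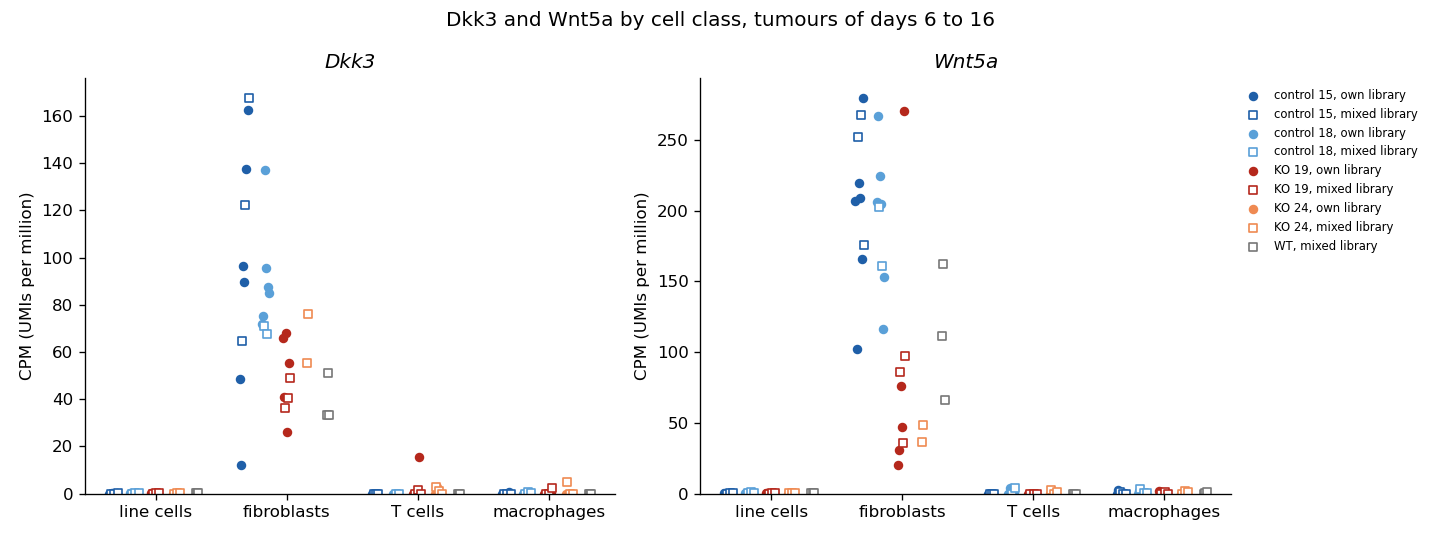
Levels of Dkk3 and Wnt5a in CPM in line cells, fibroblasts, T cells and macrophages, 1 point per tumour of days 6 to 16, filled in single-line and open in mixed libraries. Both genes are high in fibroblasts, where control tumours reach 168 CPM for Dkk3, and at or near 0 in line cells.

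Pthlh was the most abundant member in line cells, with 29644 UMIs (60.1 CPM), and in control lines it was highest on days 6 and 10. In line 15 it was 19.6 and 19.6 CPM on day 0, 87.4, 87.7 and 77.5 (mixed library) on day 6, 77.7, 104 and 70.7 (mixed library) on day 10 and 49.2, 59.6 and 71.5 (mixed library) on day 16. Line 18 held 47.5 CPM on day 0, 113, 103 and 87.2 (mixed library) on day 6, 82.6, 89.1 and 61.1 (mixed library) on day 10 and 77.5, 70.4 and 44.0 (mixed library) on day 16. Both control lines were thus higher on day 6 than on day 16 in every tumour.

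The KO lines went opposite ways after day 0. Line 19 went from 25.7 and 30.6 CPM of Pthlh on day 0 to 54.8, 40.5 and 41.95 (mixed library) on day 6, 66.5, 63.3 and 57.9 (mixed library) on day 10 and 59.8, 40.6 and 54.8 (mixed library) on day 16. Line 24 went from 47.6 and 50.1 CPM on day 0 to 45.8 and 45.4 (mixed library) on day 6, 29.9, 31.2 and 38.04 (mixed library) on day 10 and 23.8, 27.6 and 38.6 (mixed library) on day 16. All 9 later tumours of line 19 lay above its day 0 samples and all 8 of line 24 below theirs. On day 6 the 5 KO tumours lay below all 6 control tumours, and on days 0, 10 and 16 the groups overlapped.

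The log2 fold change of Pthlh, KO against control, was -0.57 (SE 0.14). It was -0.51 with library as a term and -0.72 at days 6 to 16 only. The Pthlh difference, unlike that of Dkk2, was thus nearly the same in size with and without the library term. Pth1r, its receptor, was at most 0.898 CPM in line cells of any sample and 0 to 66.4 CPM in fibroblasts.

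By the largest correlation of log2(CPM + 1) over the 42 control and KO samples, among 9573 genes of at least 5 CPM in line cells, the genes most like Dkk2 were Tns1 (Pearson r 0.93), Olfml2b (0.92) and the Wnt inhibitor Notum (0.89). For Pthlh they were Capza2 (0.87), Ehd2 (0.87) and Aig1 (0.84). For Lrp5 they were Ly6c1, Gprc5b and Car9 (each 0.82), and for Lrp6 Pnpla8 (0.85), Sec23a (0.84) and Pigp (0.82). These samples share lines, days and libraries, so the values describe likeness only.

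Among 122 other genes of the Wnt and Pthlh axis, 58 were tested in line cells and 35 passed an edgeR adjusted p under 0.05, 22 higher and 13 lower in KO. This share of 60.3% stood beside 49.9% for all genes, and the median log2 fold change of the listed genes was 0.12 against 0.001 for all genes. The lists were chosen with earlier results of these data known. This share and the p-values of listed genes in every class are thus no independent support. Of 11 Wnt receptor genes tested, 7 were higher in KO and 0 lower, beside 2942 higher and 2888 lower of all 11677 genes. Among the higher receptor genes, Fzd4, Fzd5 and Lgr4 had a line 19 mean between those of the control lines. For these genes only the line 24 mean lay above both control lines, and they were named after their values were seen. Ligands split, with 2 of 8 higher and 2 lower, and the beta-catenin genes inside the cell split 6 higher and 5 lower of 18. When UMIs were summed to 1 sample per line, 0 of 83 listed genes passed (16 at an unadjusted p under 0.05), as did 0 of all 15053 genes (1200 at an unadjusted p under 0.05). In a fit over the 11 mixed-library tumours matched by library and day, as a replicate block, 1 of 59 listed genes passed, Kremen1 (0.83, adjusted p 0.049996), and 89 of all 11768 genes.

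Notum, a secreted enzyme that inactivates Wnt proteins and a known beta-catenin target, fell in KO line cells, as did the ligand gene Wnt10a. Sfrp4 (log2 fold change -2.19) and the ligand gene Wnt6 (-1.59) passed with larger falls. They lay under the mean log2 CPM of 2 set for naming and were named after their values were seen. The Sfrp4 line means, in CPM scaled by TMM factors, were 0.675 and 5.30 in lines 15 and 18 and 0.581 and 0.522 in lines 19 and 24. Of 6 beta-catenin target genes tested, Notum was the 1 called lower and 3 were called higher, with a median log2 fold change of 0.35. The higher ones were Myc, Tcf7 (0.38) and Znrf3 (0.31), with Tcf7 and Znrf3 named after their values were seen. Notum ran from 32.5 to 99.4 CPM with a median of 60.6 in control tumours of days 6 to 16 and from 8.53 to 43.7 with a median of 21.1 in KO tumours. Its log2 fold change was -1.25 (SE 0.15) with an adjusted p of 1.14e-08. Wnt10a ran from 82.3 to 252 CPM in control and from 35.5 to 127 in KO tumours. Its groups did not overlap on any single day, and its log2 fold change was -1.33 (SE 0.12) with an adjusted p of 1.02e-11. Both stayed past the threshold with library as a term, at -0.97 and -0.93, and missed it with the replicate block, at -0.94 (adjusted p 0.087) and -0.89 (adjusted p 0.065). The group difference in both of these fits comes from mixed-library tumours.

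Of 12 genes of the planar polarity and calcium branch tested, 4 were higher in KO and 4 lower, with a median log2 fold change of -0.0004, so this list had no common direction. Its 4 lower genes met the naming rule. The calcium-responsive factor gene Nfatc1 had a log2 fold change of -0.67, and Vangl1, a planar polarity gene, of -0.58. The kinase genes Camk2d (-0.28) and Prkca (-0.26) were the others. The 4 higher genes were Prickle2 (1.45), Nfatc2 (0.81), Daam2 (0.52) and Daam1 (0.36), which did not meet the rule and were named after their values were seen. Of the 5 lower beta-catenin genes inside the cell, the kinase gene Gsk3a (-0.22) and the scaffold gene Apc (-0.15) were named by the rule. Ctnnb1 (-0.08) met its conditions too but was not among the 8 largest falls. Csnk1a1 (-0.16) and Dvl2 (-0.27) passed without meeting them, while Axin1 (0.00676) and Gsk3b (0.11) did not pass. These last 5 genes were named after their values were seen. The adjusted p values of the 6 lower genes that the rule named in these 2 lists were up to 0.0093. With library as a term Nfatc1, Prkca, Gsk3a and Apc no longer passed, at -0.44, -0.13, -0.05 and -0.15. Apc also missed the threshold without line 15 (-0.05) or without line 19 (-0.11).

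Kremen1, whose product is a receptor for DKK proteins, had the largest rise among the listed genes that met the naming rule. Its line means, in CPM scaled by TMM factors, were 6.11 and 5.94 in lines 15 and 18 and 12.6 and 11.96 in lines 19 and 24. The log2 fold change was 1.05 (SE 0.09) with an adjusted p of 1.72e-12. Wnt10b (1.77), Prickle2 (1.45) and Wnt9a (1.16) passed with larger folds but lay under the rule's minimum mean log2 CPM of 2, and were named after their values were seen. The KO lines went opposite ways for Wnt10b, with line means of 0.779 and 1.78 in lines 15 and 18, 7.0 in line 19 and 0.221 in line 24. The TCF factor gene Tcf7l2 (0.95), the receptor genes Fzd2 (0.88) and Fzd7 (0.55) and the co-repressor gene Tle3 (0.72) also rose. So did the beta-catenin cofactor gene Bcl9l (0.55), the target gene Myc (0.54) and Ctnnbip1 (0.35), an inhibitor of beta-catenin binding to TCF, with adjusted p values up to 5.29e-04 among these 8. With library as a term Fzd7 (0.28) and Bcl9l (0.25) no longer passed. Myc missed the threshold without line 24, at 0.20, and Fzd7 without line 15, at 0.33. Summed pericyte and smooth muscle markers in line cells ran from 0.659 to 35.1 CPM in control and from 1.27 to 127.8 CPM in KO tumours, and their part in these differences was not tested.

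**Figure D4:**
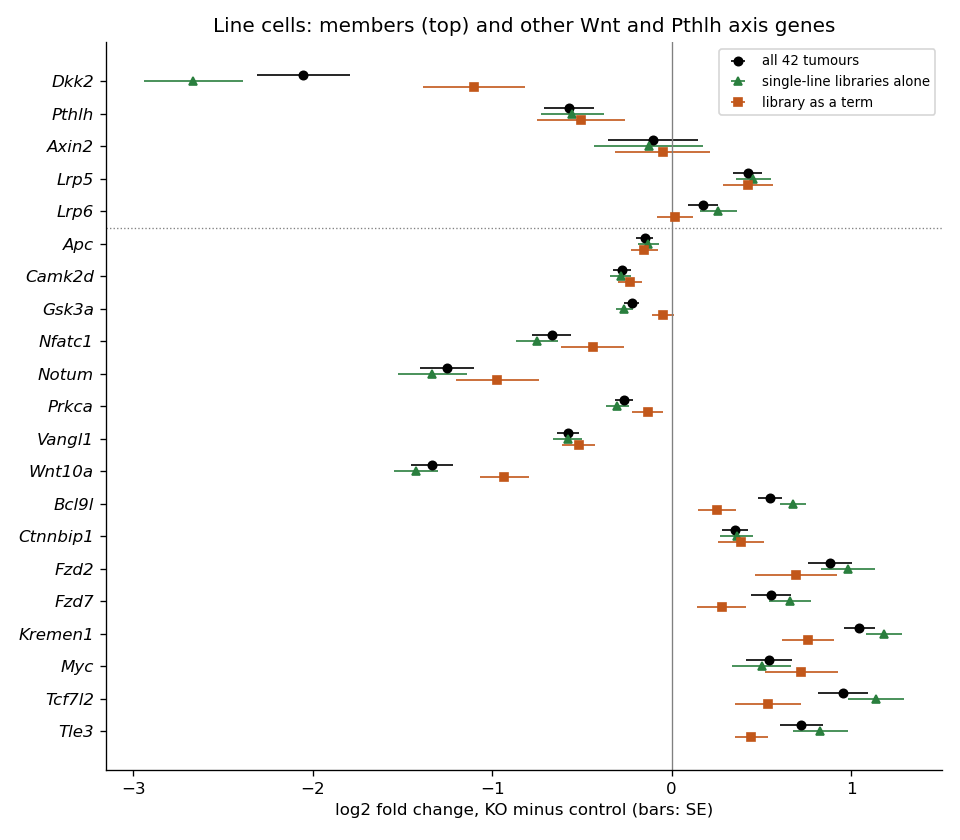
Log2 fold change in line cells, KO against control, with bars for the standard error, for the 5 members with counts enough to be fitted (above the dotted line) and 16 listed genes. Circles use all 42 samples, triangles the single-line libraries alone and squares a fit with library as a term. That last fit draws the group difference from mixed-library tumours. Dkk2 moves from -2.67 in single-line libraries to -1.10 with the library term.

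The course from day 0 was tested in the single-line libraries, with 7 day 0 samples and 23 tumours of days 6 to 16 and line as a term. Here 47.5% of 12195 genes passed. The members' log2 fold changes were 2.65 (SE 0.54) for Dkk2, 1.82 (SE 0.40) for Axin2, 0.79 (SE 0.24) for Pthlh, 0.21 (SE 0.12) for Lrp5 and -0.09 (SE 0.08) for Lrp6. The Pthlh value was 0.36 without line 15 and 1.41 without line 24, and that of Lrp6 turned to 0.10 without line 19. Of 62 listed genes tested, 36 passed, 26 higher and 10 lower, with a median of 0.14 against -0.01 for all genes. T cells, macrophages and fibroblasts were each at most 0.327% of day 0 cells in any line, and the part that this plays in the differences was not tested.

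Several Wnt genes rose after day 0 in the means of all 4 lines. Notum had a log2 fold change of 1.60 (SE 0.27) with an adjusted p of 2.18e-05, and its line 15 level went from 12.1 and 8.73 CPM on day 0 to 83.5, 82.1 and 61.5 (mixed library) on day 16. Wnt10a rose by 1.53 (SE 0.13) with an adjusted p of 7.77e-11. The calcium-responsive factor genes Nfatc2 (2.95) and Nfatc1 (1.51) rose, as did the TCF family gene Tcf7 (1.01), the co-repressor gene Tle1 (0.85), Fzd7 (0.84) and Prkca (0.66), with adjusted p values up to 0.0013. Dvl2, a relay protein gene downstream of Frizzled, was the 1 listed gene that fell in all 4 lines by the naming rule, at -0.28 (SE 0.08) (adjusted p 0.0033), and it missed the threshold without line 19 (-0.14). Daam2 (-2.03), Pygo1 (-1.46), Lef1 (-0.76) and Fzd4 (-0.74) also passed and fell in the means of all 4 lines, but lay under the rule's minimum level and were named after their values were seen. Daam2, just under it at a mean log2 CPM of 1.94, had the largest fall, with an adjusted p of 1.16e-09.

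In fibroblasts 13.1% of 4074 genes passed between KO and control, over 10 and 17 tumours. Of 21 listed genes tested, 8 passed, 3 higher and 5 lower. Both secreted Wnt inhibitor genes tested fell. Sfrp1 was 45.3 to 651 CPM with a median of 374 in control and 42.9 to 231 with a median of 81.4 in KO tumours, with a log2 fold change of -1.59 (SE 0.27) and an adjusted p of 9.34e-05. Sfrp2 changed by -1.46 (SE 0.30) with an adjusted p of 9.71e-04.

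Tnfsf11, the RANK ligand gene of the Pthlh axis, fell most. It ran from 0 to 156 CPM with a median of 43.7 in control fibroblasts and from 0 to 22.2 with a median of 5.15 in KO fibroblasts, with 14 of the 17 control tumours above every KO tumour. Its log2 fold change was -3.25 (SE 0.48) and its adjusted p 1.49e-05. Tnfsf11 had a value in 11 of the 17 alternative settings, from -4.18 to -3.12, and none in the others. Also lower were the Wnt receptor gene Ptk7 (-0.84, adjusted p 7.07e-04) and Ctnnb1 (-0.36, 0.037), which lay outside the 3 largest falls. Of 5 Wnt receptor genes tested, 1 was thus higher in KO and 1 lower. The higher one, Ryk (0.57, adjusted p 2.45e-04), rose, as did Myc (0.56, 0.023) and Ctnnbip1 (0.50, 0.024), the last 2 losing the call with library as a term (0.54 and 0.48). Myc also lost it without line 18 (0.49), and Ctnnbip1 without line 15 (0.44) or line 18 (0.52). Without line 19, the KO group is 2 tumours, and Tnfsf11 (-3.44), Sfrp2 (-1.85) and Myc (0.15) missed the threshold, while Ctnnbip1 changed sign (-0.06). With the replicate block Ryk (0.57), Myc (0.55) and Ctnnbip1 (0.48) did not pass, and Sfrp1 and Sfrp2 did.

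T cells and macrophages also held UMIs of the genes that line cells express. In single-line libraries the Dkk2 level of T cells was 14.9 CPM in line 15 and 43.4 in line 18, against 8.13 in line 19 and 1.59 in line 24. These rested on 9, 31, 21 and 5 Dkk2 UMIs and were 27.1%, 56.5%, 46.2% and 26.97% of the line cells' levels. Macrophages of the same libraries were at 31.3%, 56.8%, 49.3% and 31.7%, on 140, 318, 23 and 9 UMIs. In both host classes the 4 lines stood in the same order as in line cells, on few UMIs in T cells.

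In mixed libraries the order was different. The Dkk2 level of T cells in tumours of KO lines was 36.1 CPM in line 19 (43 UMIs) and 35.5 in line 24 (88 UMIs), above the 27.7 and 21.04 CPM of the line cells from the same tumours. Macrophages of these tumours held 37.98 and 22.8 CPM. In mixed libraries the Dkk2 level of KO line cells was therefore no higher than in T cells and macrophages of the same tumours. Single T cells held up to 10 Dkk2 UMIs (in line 24) and up to 17 Pthlh UMIs (in a WT tumour), and the part of doublets and of free RNA was not tested.

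**Figure D5:**
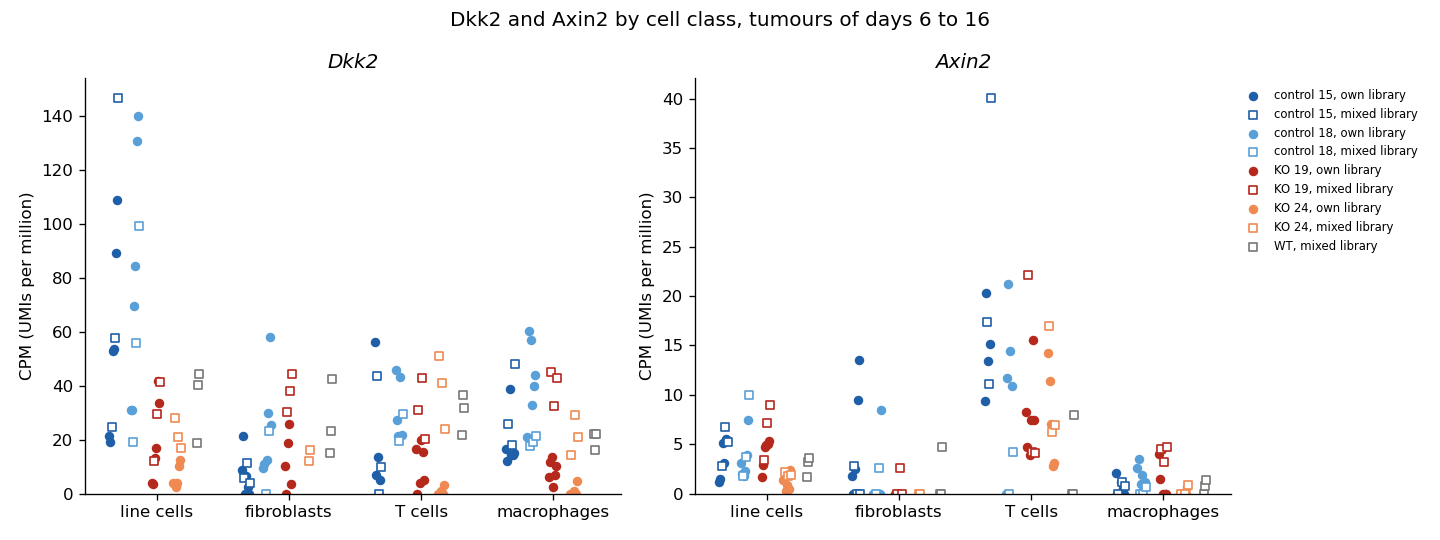
Levels of Dkk2 and Axin2 in CPM by cell class, 1 point per tumour of days 6 to 16, filled in single-line and open in mixed libraries. T cells and macrophages of KO tumours hold more Dkk2 in mixed than in single-line libraries, and Axin2 reaches higher levels in T cells, up to 40.05 CPM in a control tumour, than in line cells, where it reaches 10.01 CPM. T cell sums of control tumours hold 47161 to 256101 UMIs of all genes, so their highest Axin2 levels rest on few UMIs.

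Axin2 was higher in T cells than in line cells when pooled by line, and in 25 of 31 control and KO tumours taken singly. The T cells of 2 tumours of line 18 held 0 Axin2 UMIs. Pooled over days 6 to 16, T cells held 16.5 CPM in line 15 (15 UMIs), 10.03 in line 18 (11), 7.15 in line 19 (27) and 6.76 in line 24 (38). The line cells held 3.84, 3.95, 4.98 and 1.42 CPM, and macrophages 0.641, 0.967, 2.69 and 0.297 CPM. With cells thinned to 1000 UMIs, a T cell had an Axin2 UMI in 2.28%, 0.942%, 1.03% and 0.763% of cells in the 4 lines, and a line cell in 0.471%, 0.526%, 0.613% and 0.147%. The pooled T cell level was thus higher in all 4 lines on both scales, on 11 to 38 Axin2 UMIs a line.

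In T cells 8.14% of 3513 genes passed between KO and control, and no member had counts enough to be fitted. Of 15 listed genes tested, 1 passed, Wnt10a, at -1.31 (SE 0.30) (adjusted p 0.0055). Wnt10a is a gene that line cells hold at a high level, and its T cell difference was -0.62 with library as a term, where it did not pass. It also missed the threshold without line 15 (-1.26) or line 18 (-1.34) and with the replicate block (-0.65), and it gave no value without line 19 or line 24.

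Macrophages were not named in the rule that chose the members, so the members were tested there. The choice was still made with earlier results of these data known. Macrophage Dkk2 also followed the line order of line cells in single-line libraries. The p-values of members in macrophages are thus no independent support. In macrophages 34.8% of 7497 genes passed, and 3 of the 4 members tested did. In mixed libraries alone 0 of 3 members tested passed and in single-line libraries alone 0 of 2, with Lrp5 tested in neither and Dkk2 in mixed libraries alone. Over all genes 246 of 7626 passed in mixed libraries alone and 1836 of 6694 in single-line libraries alone. Dkk2 was 12.3 to 60.5 CPM with a median of 21.2 in 18 control tumours and 0 to 45.2 with a median of 10.4 in 17 KO tumours. Its log2 fold change was -0.998 (SE 0.35) with an adjusted p of 0.025, and it reversed to 0.41 with library as a term and 0.43 in mixed libraries alone, neither past the threshold. Without line 18 it was -0.69 and without line 24 -0.47, and it then missed the threshold, as it did with DESeq2 (-0.94).

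The co-receptor genes were higher in KO macrophages. Lrp5 was 5.98 to 14.7 CPM with a median of 10.5 in control and 4.93 to 42.3 with a median of 16.9 in KO tumours, and 9 KO tumours lay above every control tumour. Its log2 fold change was 0.63 (SE 0.18) (adjusted p 0.0057), and 0.60 with library as a term, where it did not pass. It also missed the threshold without line 18 (0.49) or line 24 (0.65), and without line 15 it had too few counts to be fitted. Lrp6 changed by 0.34 (SE 0.13) (adjusted p 0.041) and lost the call in 10 of 17 alternative settings. Among these were library as a term (0.20), without line 15 (0.21) and without line 24 (0.16). Pthlh did not pass, at -0.43 (SE 0.23) (adjusted p 0.133). Summed neutrophil markers in macrophages ran from 6.42 to 39.2 CPM with a median of 11.8 in control and from 6.30 to 65.5 CPM with a median of 32.0 in KO tumours. All 5 of these markers were higher in KO when pooled, led by Csf3r (10.01 and 21.8 CPM), with Retnlg at 0 in control. Summed dendritic cell markers ran from 16.4 to 63.2 CPM (median 27.1) in control and from 8.45 to 184 CPM (median 33.0) in KO tumours. The part of these cells in the members' differences was not tested.

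Of 30 listed genes tested in macrophages, 14 passed, 8 higher and 6 lower. Tnfrsf11a, which encodes RANK, the receptor of RANK ligand, fell, with a log2 fold change of -1.38 (SE 0.16) (adjusted p 8.44e-08), and Nfatc1, a factor of osteoclast formation downstream of it, fell too, at -1.07 (SE 0.21) (adjusted p 1.52e-04). Wnt10a was lower, at -0.75 (SE 0.29) (adjusted p 0.040) and turned to 0.24 with library as a term, and it missed the threshold without line 18 (-0.61) or line 24 (-0.15). Runx2 (0.86), Tle3 (0.82) and Tcf7l2 (0.72) rose, with adjusted p values up to 1.55e-04. Runx2 missed it without line 24 (0.51). With library as a term Tnfrsf11a (-1.05) and Tle3 (0.71) kept their call. Nfatc1 lost it at a fold of nearly the same size (-1.02), and Runx2 (0.59) and Tcf7l2 (0.34) lost it at smaller folds. With the replicate block Tnfrsf11a (-1.04) and Nfatc1 (-1.18) passed, and Tle3 (0.71), Runx2 (0.44), Tcf7l2 (0.30) and the 4 members tested did not. That fit called 186 of all 7591 genes. Summed osteoclast markers in macrophages ran from 66.2 to 3801 CPM with a median of 517 CPM in control and from 62.4 to 421 CPM with a median of 206 CPM in KO tumours. Pooled over tumours, Ctsk was 245 CPM in control and 5.15 in KO macrophages, and the part of these cells in the Tnfrsf11a and Nfatc1 results was not tested.

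The 3 tumours marked WT, all in 1 mixed library, entered no comparison. Their line cells held 18.7, 40.3 and 44.2 CPM of Dkk2 on days 6, 10 and 16. Pthlh was at 54.9, 45.9 and 36.4 CPM and Axin2 at 1.63, 3.21 and 3.59 CPM on the same days. On each of the 3 days their Dkk2 and their Pthlh lay below all control tumours of that day. Their Dkk2 was above the highest KO tumour on days 10 and 16 (29.3 and 41.7 CPM). Their Pthlh lay within the KO range on those 2 days. In their fibroblasts Wnt5a was 112, 162 and 66.2 CPM.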

How the data were processed

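The authors deposited filtered count matrices of genes and hashtags, 1 for each of 6 libraries, made with Cell Ranger 6.0.0 on mm10, per the submitters' processing notes; values are whole UMI counts, not normalized. The 163866 cells with 300 or more genes and no more than 15% mitochondrial counts were used. HTODemux (Seurat 5.3.0, quantile 0.99) gave 100459 singlets, 38402 doublets and 25005 negatives; no other doublet step was applied. Hashtags under 0.1% of a library's counts were dropped (line 18 day 0 and line 24 day 6, 1 sample each). Classes were gated on raw marker UMIs. Counts were summed per tumour and class (at least 20 cells) and fitted with edgeR 4.0.16 (TMM, filterByExpr, quasi-likelihood test, Benjamini-Hochberg adjustment at 0.05); the KO fits had day and group as terms, the day fit line and stage. The fit was tested on simulated data of independent tumours with no line or library effect, which does not cover lines nested in groups. Named listed genes passed 0.05 at a mean log2 CPM of at least 2, with both KO lines on 1 side of both control lines (for the course, the same direction in all 4 lines), up to 8 each way in line cells and 3 elsewhere. Members and lists were chosen with earlier results of these data known. Alternatives covered scaling, filter, DESeq2 1.42.0, libraries, a block of mixed library and day, lines, days, gates, hashtag call and cell minimum.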

Additional observations from a re-analysis of the deposited data

Results flagged for a closer look

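Pthlh and Lrp6 moved opposite ways after day 0 in different lines. Pthlh in line cells was lower in all tumours of days 6 to 16 than at day 0 in line 24, with a mean difference of -13.8 CPM, and higher in all such tumours of lines 15 and 19. Lrp6 in line cells was lower in all later tumours of line 19, with a mean difference of -15.5 CPM, and higher in all later tumours of line 18, which had 1 day 0 sample. Neither difference between lines was tested.

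The WT tumours, used in no comparison, lay above every control tumour of their day for Lrp5 on day 10 (32.2 CPM) and for Lrp6 on day 10 (33.5 CPM) and day 16 (38.6 CPM), with 1 WT tumour a day. Among 20 sets of tumours (1 member in 1 line, days 6 to 16), none had a tumour standing apart by Dixon's test, which chance gives in about 1 of 20.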

How the results depend on the processing

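The number of listed genes called between KO and control in line cells (35) stayed within 1.5 times of that value except with 1 sum per line (0), in mixed libraries alone (6), with library as a term (19, of which 18 were among the 35) and with mixed library and day as a replicate block (1). The calls over all genes moved too, from 5830 to 0, 486, 1653 and 89 in these 4 settings. For the course from day 0 (36) only 1 sum per line moved it, to 12, and leaving out a line gave 25 to 36. In fibroblasts the 8 of 21 tested became 19 of 102 with no low-count filter and 15 of 72 with 1 sum per line. Of the 8, 6 and 4 were among these calls. The 8 became 3 in mixed libraries, 3 with the replicate block, 5 with library as a term and 4 with a stricter gate. They became 2 with at least 50 cells a tumour, 4 in single-line libraries alone and 5 to 8 without a line. In T cells the 1 became 2 with no filter and 0 with 1 sum per line, in mixed or single-line libraries alone, with library as a term, with the replicate block, with a stricter gate and without any 1 line (range 0 to 0), with 1 to 5 at an unadjusted p under 0.05 in these settings. In macrophages the 17 genes, members included, became 0 with 1 sum per line (16 listed genes at an unadjusted p under 0.05), 1 in mixed libraries, 2 with the replicate block, 3 with library as a term, 9 in single-line libraries alone and 5 to 17 without a line (5 without line 24, 8 without line 15, 10 without line 18). Over all genes the calls in these 3 classes moved as well, to 255, 8 and 315 with library as a term from 535, 286 and 2606. With 1 sum per line they were 418, 1 and 3, and in mixed libraries alone 207, 8 and 246. With the replicate block they were 169, 2 and 186, and in single-line libraries alone 272, 247 and 1836. Single-line libraries alone and the replicate block were chosen after seeing the data. Signs turned for Dkk2 in macrophages (0.43 in mixed libraries alone, 0.41 with library as a term, 0.61 with the replicate block), for Wnt10a there (0.26, 0.24 and 0.44), for Sfrp2 in fibroblasts with at least 50 cells a tumour (0.38) and for Ctnnbip1 in fibroblasts without line 19 (-0.056, against up to 0.57 without line 24); the causes were not tested. The course from day 0 has no mixed-library samples, so it was not refitted by library. Line and single-line library cannot be told apart. With library as a term the group difference is therefore drawn from mixed-library tumours, as in mixed libraries alone and with the replicate block. For 3 members by CPM, Dkk2, Pthlh and Wnt5a, both control lines lay above both KO lines in line cells at days 6 to 16. By the share of cells with a UMI after thinning to 1000 UMIs this held for 4, with Dkk3 added. Wnt5a and Dkk3 were near 0 in line cells. How many of all genes meet the same condition was not counted, so these counts have no background share. Over all days edgeR called 49.9% of 11677 genes between these groups. The replicate numbers of the lines follow accession order and pair no lines, so the block pairs tumours only by mixed library and day. Fibroblasts (21 to 99 cells a tumour) and T cells (25 to 530) limit what low genes can show.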
